A study of Mus musculus with 18 samples.

Results

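The genes described here encode the nuclear-encoded subunits of the 5 enzyme complexes of oxidative phosphorylation, measured in the liver of mice treated with vehicle or GDF15, or pair-fed to GDF15-treated mice. Members were chosen by a rule on gene symbols, with earlier results of these data known. The rule took every gene of the table whose symbol starts with Nduf followed by a, b, c, s or v and a digit. It also took symbols that start with Uqcr, with Atp5, or with Cox followed by 4i, 5, 6, 7 or 8. Sdha, Sdhb, Sdhc and Sdhd completed the list. This gave 84 of the 16245 genes in the table, of which 39 belong to complex I by symbol, 4 to complex II, 8 to complex III, 16 to complex IV and 17 to complex V. Some symbols fit their complex only loosely, since the product of Ndufa4 is now placed in complex IV, Ndufa4l2 is a paralog of it, Cox7a2l encodes a factor that joins complexes into supercomplexes, and Ndufs5-ps is a pseudogene.

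Oxidative phosphorylation takes place in the inner mitochondrial membrane. Complexes I and II pass electrons from NADH and succinate to ubiquinone, complex III passes them on to cytochrome c, and complex IV passes them to oxygen. Complexes I, III and IV pump protons as they do so, and complex V, the ATP synthase, lets the protons flow back through a rotating ring of c subunits to make ATP. Hepatocytes are rich in mitochondria and use this ATP for glucose, urea and lipid metabolism. The core subunits made from the mitochondrial genome were not analysed here.

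The samples were livers of C57BL/6 mice, of wild-type (WT) genotype throughout, with 6 mice in each of the groups Vehicle, GDF15 and PairFed. All 18 mice had received a NASH diet, a diet rich in fat and fructose that induces fatty liver disease, and a housing temperature of about 29 °C, close to thermoneutrality for mice, from 8 weeks of age, and were single-housed before treatment. The study's methods describe the animals as males of the C57BL/6J background. GDF15 mice were injected under the skin once a day with recombinant GDF15, a circulating stress hormone that lowers food intake through a hindbrain receptor, and each PairFed mouse was given as much food as GDF15-treated mice had eaten the day before. The labels list several doses of GDF15 and do not say which one these mice received. The comparison of GDF15 with Vehicle asks what the treatment changes, and the comparison with PairFed asks what remains when food intake is matched. Both comparisons use the same 6 GDF15 libraries, so that their results are not independent.

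Vehicle libraries held 18059478 to 23215915 assigned read counts, GDF15 libraries 16508864 to 25001486 and PairFed libraries 17180057 to 35301853. The tissue fits its label, since hepatocyte markers summed to at least 1422000 normalized counts in each library, and markers of muscle and heart summed to at most 3.612. In bulk liver, fewer cells of a type and less RNA per cell cannot be told apart. Marker levels moved with the GDF15 group. The summed hepatocyte markers ranged from 1548000 to 1955000 in Vehicle, 2188000 to 2537000 in GDF15 and 1422000 to 2133000 in PairFed livers, and 7 of the 9 measured markers were higher in each GDF15 comparison. Stellate cell and fibroblast markers summed to 9247 to 16230, 4617 to 6828 and 8318 to 13320 in the same order, with 9 of 10 lower than Vehicle and 8 of 10 lower than PairFed. Macrophage markers summed to 6684 to 13120, 4025 to 8611 and 6631 to 10580, with 10 and 9 of 12 lower. Cholangiocyte markers summed to 2447 to 8944, 1056 to 2140 and 2206 to 6278, with 7 and 3 of 7 lower. Of the 9 sinusoidal endothelium markers, 1 was higher and 1 lower than Vehicle, and 1 was lower than PairFed, with sums of 4486 to 6210, 3514 to 6421 and 5052 to 6584. Of the 9 lymphocyte and neutrophil markers, 1 was lower than Vehicle and 3 were lower than PairFed, with sums of 253.1 to 470.5, 149.8 to 304 and 294.9 to 429.3. None of the 3 measured blood cell markers passed. No marker measured was at 0 in all samples of a group. The part of cell composition in the results below was not tested.

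Promoter sequences are given first for 6 members on which the results turn, because members of one subassembly of the ATP synthase differed in their response. Many genes of the respiratory chain carry binding motifs for the factors NRF1, GABP, YY1 and ERR near their start. Each line holds the 120 bases directly before a RefSeq transcript start, 5′ to 3′ on the transcribed strand, from build GRCm38.p6. All 6 genes lie on the minus strand. Where a gene had several windows, the one with the most matches to the 4 motifs below is shown. The stretches of Atp5g3 and Atp5j lie wholly inside the bounds of the gene, before an internal start, and that of Atp5g1 lies partly inside. Capitals mark an exact match, on either strand, to GCGCATGC (NRF1), CCGGAAGT (GABP), AAGATGGCG (YY1) or TCAAGGTCA (ERR).
Atp5g1, chr11:96075632-96075751, minus strand: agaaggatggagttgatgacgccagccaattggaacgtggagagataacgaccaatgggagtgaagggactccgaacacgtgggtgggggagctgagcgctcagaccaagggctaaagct
Atp5g3, chr2:73911327-73911446, minus strand: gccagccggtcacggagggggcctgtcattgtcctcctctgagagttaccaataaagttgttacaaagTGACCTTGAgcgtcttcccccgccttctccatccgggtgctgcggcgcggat
Atp5h, chr11:115419920-115420039, minus strand: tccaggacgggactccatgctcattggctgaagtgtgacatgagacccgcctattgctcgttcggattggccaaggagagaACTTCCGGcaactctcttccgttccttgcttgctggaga
Atp5j, chr16:84834977-84835096, minus strand: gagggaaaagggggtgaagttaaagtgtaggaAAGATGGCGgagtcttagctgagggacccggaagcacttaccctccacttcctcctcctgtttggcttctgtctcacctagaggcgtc
Atp5o, chr16:91931631-91931750, minus strand: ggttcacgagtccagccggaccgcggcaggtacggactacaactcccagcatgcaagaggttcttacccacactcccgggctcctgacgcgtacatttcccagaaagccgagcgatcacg
Ndufa6, chr15:82354292-82354411, minus strand: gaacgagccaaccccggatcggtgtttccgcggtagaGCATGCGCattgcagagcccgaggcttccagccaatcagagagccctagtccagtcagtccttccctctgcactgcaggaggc
The capitals mark an NRF1 match in Ndufa6 that starts 83 bases before the transcript start, a GABP match in Atp5h at 39 bases, a YY1 match in Atp5j at 88 bases and an ERR match in Atp5g3 at 52 bases. Neither Atp5g1 nor Atp5o held any of these letters in the stretch shown. Promoter windows from 250 bases before to 50 after the start were available for 67 of the 84 members, as 72 windows. The NRF1 letters stood in 13.9% of these windows and in 2.71% of all 32851 mouse windows, and the YY1 letters in 9.72% and 1.4%. The GABP letters stood in 6.94% and 3.89%, the ERR letters in 2.78% and 0.423%, and the short CCAAT, which can lie next to or inside other motifs, in 41.7% and 37.4%. A match describes the letters alone and is neither a binding site nor a cause.

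Compared per transcript length, as TPM, the share of all transcripts after division by length, averaged over the 18 livers, the most abundant member of complex V was Atp5b, the catalytic beta subunit, at 1240 TPM. In complex IV it was Cox4i1 at 1140 TPM, in complex III Uqcrq at 604 TPM, and in complex II Sdha, the flavoprotein, at 407 TPM. Among the members put into complex I by symbol it was Ndufa4 at 992 TPM, whose product is now placed in complex IV. Complex IV has subunits with a general form and a form known from heart, muscle, lung or testis, and in these livers the general form led by far in each pair. Cox4i1 at 1140 TPM stood beside Cox4i2 at 0.328 TPM, Cox6a1 at 813 beside Cox6a2 at 0.113, and Cox6b1 at 653 beside Cox6b2 at 0.926. Cox8a at 736 TPM stood beside Cox8b at 0.162, and Cox7a2 at 386 beside Cox7a1 at 8.3 TPM. Cox7a1, at a mean of 43.92 normalized counts, was the best measured of the tissue forms and gave -0.11 ± 0.19 (SE) on the log2 scale for GDF15 against Vehicle, with a 95% interval of -0.48 to 0.26. Mean normalized counts were 0.8497 for Cox6a2, 0.6092 for Cox8b, 2.61 for Cox4i2 and 3.985 for Cox6b2, too few to show a difference between groups. In all, 77 members had a mean of at least 100 normalized counts.

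GDF15 treatment was accompanied by small changes in a limited number of members. Of the 82 members tested against Vehicle, 11 passed a DESeq2 adjusted p under 0.05 as higher, by 11% to 23.5%, and 0 as lower. Over all 14667 genes tested, 15.8% were higher and 17.5% were lower. Among the better measured genes, with a mean of at least 100 normalized counts, 22.2% were higher and 14.5% were lower, beside 14.3% and 0% of the 77 members at that level. Members were thus not called more often than genes of similar abundance in either direction. The 11 were Ndufa6, Ndufb5, Ndufb11, Ndufs7, Ndufs8 and Ndufv3 of complex I and Atp5e, Atp5g1, Atp5h, Atp5j and Atp5o of complex V. The low-count genes Cox6a2 and Cox8b were not tested. In edgeR's quasi-likelihood test 10 members were higher and 1, Ndufb3, was lower, and at an unadjusted DESeq2 p under 0.05 there were 16 members. Upper-quartile scaling gave 9 higher and 2 lower, and counts corrected for GC content and transcript length gave 14 higher and 3 lower, the lower ones being Cox6a1, Ndufb3 and Ndufs1. No member met the study's stricter rule, which also asks for an absolute log2 fold change above 1, against 6.27% of all genes tested.

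The members as a group shifted little. Their median log2 fold change against Vehicle was 0.053, with 55 of 82 above 0, whereas the median of all genes was 0.002. Genes with a mean of at least 100 normalized counts had a median of 0.054, and the 77 members at that level had 0.055. For these 77 members the measurements were precise enough to bound the change on DESeq2's median-of-ratios scale. The intervals do not include the choice of scale, and scaling by total counts moved the median over members to -0.117. The 95% interval lay within 0.25 on the log2 scale (18.9%) of 0 for 57 of them and within 0.5 (41.4%) for all 77, and the widest reach was 0.45, for Atp5g2.

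**Figure D1:**
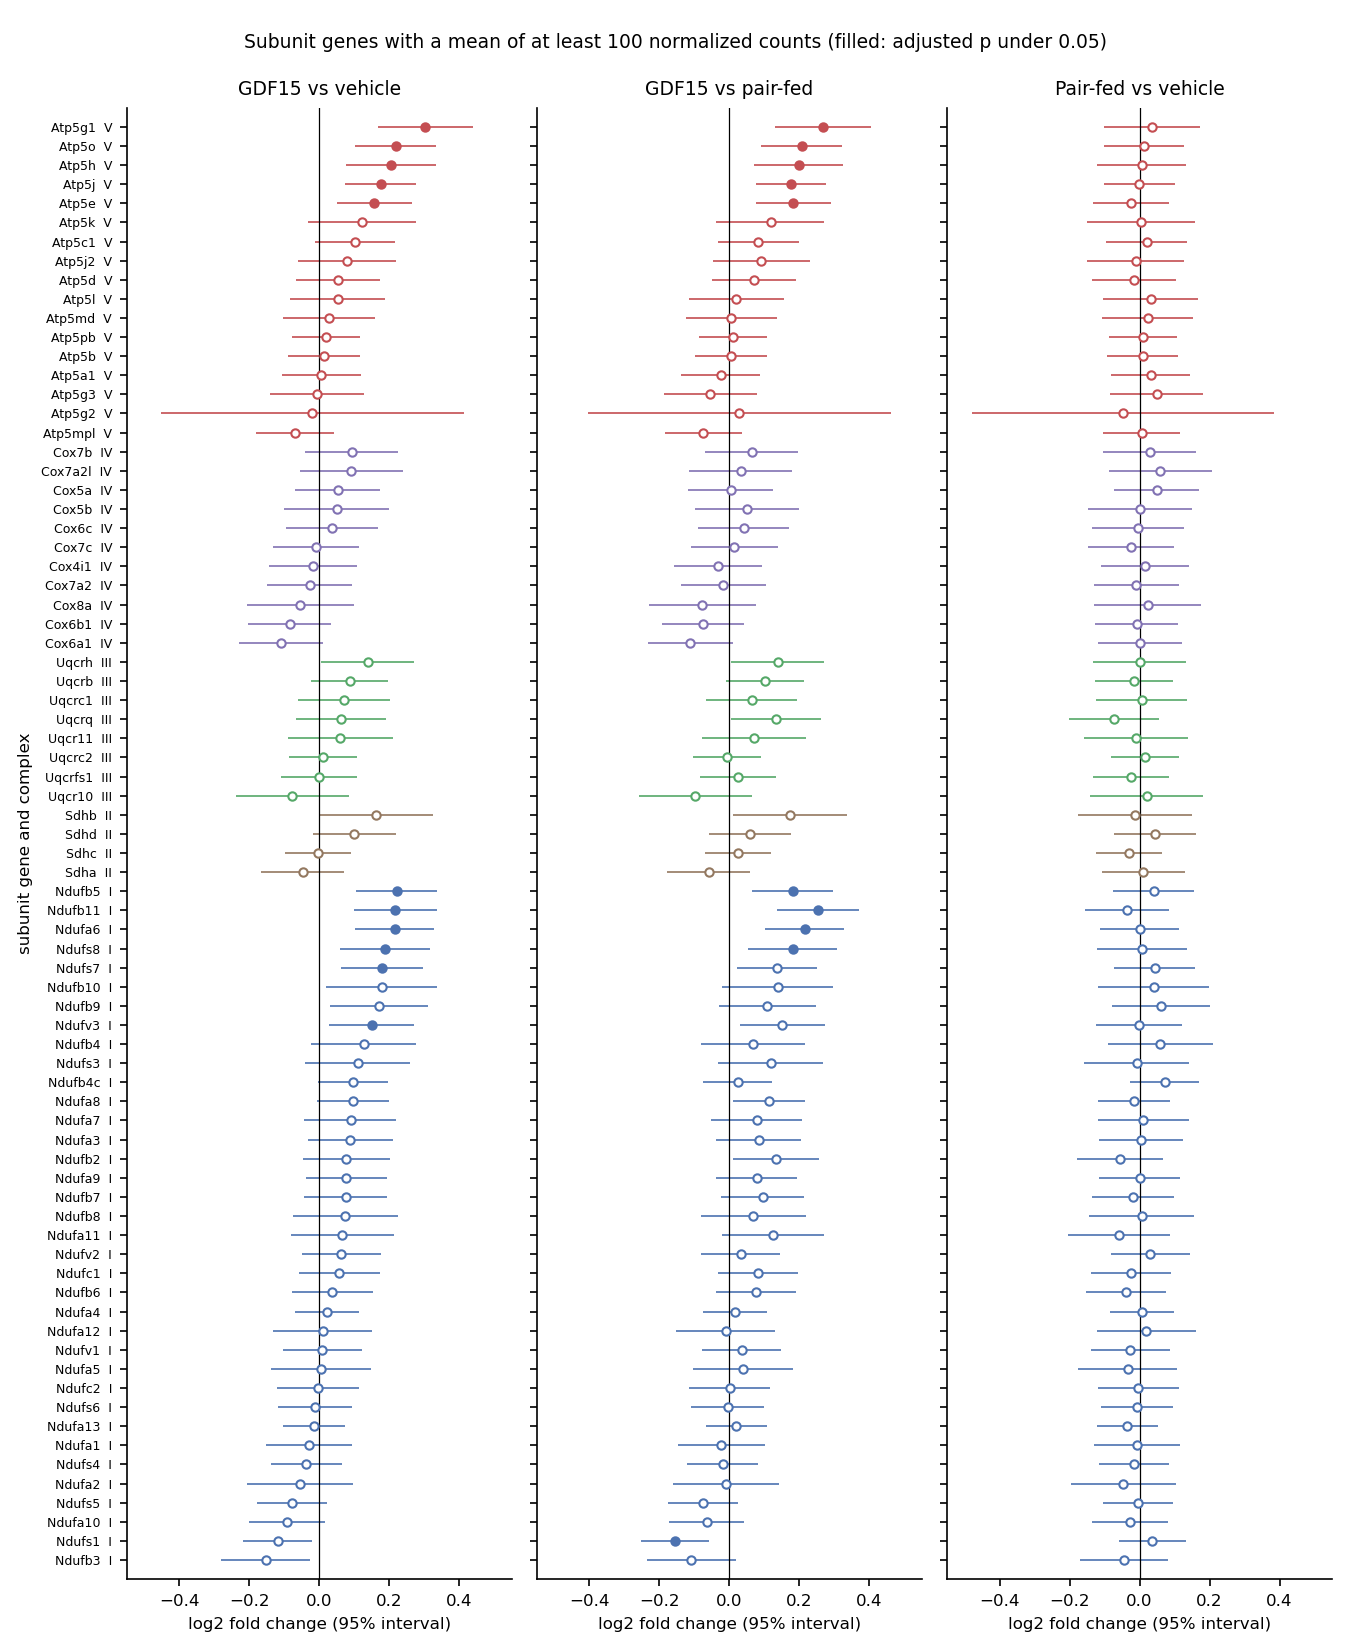
Log2 fold change with its 95% interval for well measured members with a mean of at least 100 normalized counts, in GDF15 against Vehicle, GDF15 against PairFed and PairFed against Vehicle, colored by complex, with filled points for members that passed a DESeq2 adjusted p under 0.05. Most points sit near 0, the 11 members higher than Vehicle belong to complexes I and V, and Ndufs1 is the 1 member lower than PairFed.

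In complex I, 6 of 39 members rose against Vehicle, where 15.8% of all genes and 22.2% of genes with a mean of at least 100 counts were higher, so that the count itself does not set the complex apart. The median over the complex was 0.064. Complex I is built from an N module that oxidizes NADH, a Q module that reduces ubiquinone, and a membrane arm that pumps protons. In the N module 2 of 10 members rose, in the Q module 2 of 5, and among the membrane arm and other accessory subunits 2 of 21.

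Ndufa6, an accessory subunit of the matrix arm of the LYR family (chr15:82350139-82354291), ran from 2492 through a median of 2709 to 2876 normalized counts in Vehicle, 3054 through 3134 to 3293 in GDF15 and 2356 through 2735 to 3066 in PairFed livers. All 6 GDF15 values lay above all Vehicle values. The share of all genes separated from Vehicle alone in this way was not counted, here or for the genes below. The difference from Vehicle was 0.22 ± 0.058 (log2, SE; DESeq2 adjusted p = 0.0012), or 16.2%. Ndufb11, an accessory subunit of the membrane arm encoded on the X chromosome (chrX:20615326-20617619), ran from 1938 through 2138 to 2260 in Vehicle, 2329 through 2446 to 2726 in GDF15 and 1863 through 2079 to 2322 in PairFed. It was the only member of the 79 with a mean of at least 10 counts whose 6 GDF15 values all lay on one side of the 12 others, a separation seen in 7.89% of all 12883 such genes. Its log2 difference was 0.22 ± 0.061 from Vehicle (adjusted p = 0.00202, DESeq2) and 0.25 ± 0.06 from PairFed (adjusted p = 0.000336, DESeq2).

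Ndufb5, another membrane arm accessory subunit (chr3:32737057-32751559), ran from 1262 through 1405 to 1492 in Vehicle, 1526 through 1644 to 1674 in GDF15 and 1318 through 1419 to 1591 in PairFed. The GDF15 and Vehicle values did not overlap, and the log2 difference was 0.22 ± 0.059 (DESeq2 adjusted p = 0.0012). Ndufs7 and Ndufs8 encode the iron-sulfur subunits of the Q module that hand electrons to ubiquinone. Ndufs7 (chr10:80249105-80256794) ran from 1199 through 1247 to 1389 in Vehicle, 1315 through 1434 to 1581 in GDF15 and 1173 through 1325 to 1428 in PairFed, a log2 difference of 0.18 ± 0.059 from Vehicle (DESeq2 adjusted p = 0.0104). Ndufs8 (chr19:3908863-3912774) ran from 1232 through 1342 to 1526, 1443 through 1563 to 1595 and 1231 through 1327 to 1543 in the same order of groups, a log2 difference of 0.19 ± 0.066 (DESeq2 adjusted p = 0.0166). With 1 library left out at a time, Ndufs8 passed in 16 of 18 fits against Vehicle and in 14 of 18 against PairFed (highest adjusted p 0.0568 and 0.0759, DESeq2). It was lost against Vehicle without Vehicle replicate 1 or 5, and against PairFed without GDF15 replicate 6, without PairFed replicate 1, 2 or 3, and with upper-quartile scaling. For both, the groups overlapped, with 4 and 5 of 6 GDF15 livers above all Vehicle livers. Ndufv3, an accessory subunit of the NADH-oxidizing tip (chr17:31520115-31531326), ran from 1332 through 1418 to 1561 in Vehicle, 1429 through 1580 to 1726 in GDF15 and 1270 through 1408 to 1571 in PairFed. Its log2 difference of 0.15 ± 0.062 lay just past the threshold (DESeq2 adjusted p = 0.0478), and it passed in 4 of 13 alternative settings and 5 of 18 fits that each left out 1 library.

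The core subunits Ndufs1 and Ndufv1 of the N module did not pass as higher. Ndufs1, the largest iron-sulfur subunit of the N module (chr1:63143592-63176822), ran from 2860 through 3031 to 3278 in Vehicle, 2645 through 2762 to 3074 in GDF15 and 2962 through 3172 to 3259 in PairFed livers. Its log2 difference from Vehicle was -0.12 ± 0.05 (DESeq2 adjusted p = 0.051), and against PairFed its log2 difference was -0.16 ± 0.049, which passed as lower (DESeq2 adjusted p = 0.00957). Ndufv1, which binds the flavin that accepts electrons from NADH, gave 0.009 ± 0.058 against Vehicle with a 95% interval of -0.10 to 0.12. Ndufb4 and Ndufb4c are near-identical copies, and several members have pseudogenes, so that the division of reads between such copies is uncertain.

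None of the 4 members of complex II passed in either GDF15 comparison. Sdhb, the iron-sulfur subunit, ran from 3169 through 3635 to 4283 in Vehicle, 3665 through 4217 to 4655 in GDF15 and 3369 through 3600 to 4245 in PairFed, with a log2 difference from Vehicle of 0.16 and an interval of -0.001 to 0.33 (DESeq2 adjusted p = 0.121). Sdha, the flavoprotein that oxidizes succinate, gave -0.047 with an interval of -0.17 to 0.071. The membrane anchors Sdhc and Sdhd gave -0.004, with an interval of -0.098 to 0.090, and 0.10, with an interval of -0.016 to 0.22.

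None of the 8 members of complex III passed. The core proteins Uqcrc1 and Uqcrc2 gave 0.071 (95% interval -0.059 to 0.20) and 0.011 (-0.087 to 0.11) against Vehicle on the log2 scale. Uqcrfs1, the Rieske iron-sulfur protein, gave 0 with an interval of -0.11 to 0.11. Uqcrq, the member with the highest level per length, gave 0.062 (-0.067 to 0.19) against Vehicle and 0.13 (0.005 to 0.26, DESeq2 adjusted p = 0.117) against PairFed.

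Complex IV stood lowest of the 5 complexes, with a median log2 fold change of -0.013 against Vehicle and -0.011 against PairFed, and 0 of the 14 members tested passed in either comparison. All 5 general forms of the subunits with tissue forms lay below 0 in both comparisons, with medians of -0.054 and -0.076, and none of the 5 passed. The direction was not the same in both sets of liver numbers. In livers numbered 4 to 6 all 5 lay below 0 in both comparisons, whereas in livers numbered 1 to 3 all 5 lay above 0 against PairFed, from 0.076 to 0.159, and all but Cox6a1 (-0.017) above 0 against Vehicle. Cox6a1 ran from 4779 through 5227 to 5437 in Vehicle, 4445 through 4822 to 5212 in GDF15 and 4501 through 5264 to 5758 in PairFed, and the groups overlapped. Its log2 difference from Vehicle was -0.11 with a 95% interval of -0.23 to 0.011 (DESeq2 adjusted p = 0.163). Cox4i1, which carries a regulatory nucleotide site, gave -0.017 (-0.14 to 0.11), Cox6b1 -0.084 (-0.20 to 0.034), Cox7a2 -0.027 (-0.15 to 0.095) and Cox8a -0.054 (-0.21 to 0.10). The 5 subunits with a single form had medians of 0.050 and 0.041, and Cox7a2l, the supercomplex factor, gave 0.092 (-0.055 to 0.24) against Vehicle.

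In complex V, 5 of 17 members rose, and the same 5 rose against Vehicle and against PairFed, with medians of 0.055 and 0.071 over the complex. Against Vehicle 15.8% of all genes and 22.2% of genes with a mean of at least 100 counts were higher. Against PairFed these shares were 13.3% and 18.3%. With only 17 members, the count itself does not set the complex or its parts apart. The 5 genes lay in 3 parts of the enzyme. Of the 4 genes of the peripheral stalk, which holds the catalytic head still while the ring turns, 3 rose, as did 1 of the 3 c-ring genes and 1 of the 5 genes of the F1 head and central stalk. None of the 5 membrane accessory genes passed.

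Atp5g1, 1 of 3 genes for the same mature c subunit (chr11:96072793-96075694), ran from 3120 through 3445 to 3757 in Vehicle, 3891 through 4229 to 4511 in GDF15 and 3085 through 3461 to 4198 in PairFed livers. Every GDF15 liver lay above every Vehicle liver, and 4 of 6 lay above every PairFed liver. The difference was the largest of the members that passed, at 0.30 ± 0.07 (DESeq2 adjusted p = 0.000145) against Vehicle and 0.27 ± 0.07 (DESeq2 adjusted p = 0.00115) against PairFed, or 23.5% and 20.5%. Its sister gene Atp5g3 (chr2:73908447-73912464), which differs in the import peptide that is removed in the mitochondrion, ran from 7990 through 9182 to 9515, 8351 through 9028 to 9592 and 8296 through 9065 to 10950. The groups overlapped throughout, and the log2 difference from Vehicle was -0.005 with a 95% interval of -0.14 to 0.13. Atp5g2, the weakest of the 3, ran from 144.5 through 164.4 to 237.4 in Vehicle and from 75.93 through 180.2 to 237.7 in GDF15.

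The peripheral stalk genes that rose were Atp5o, Atp5h and Atp5j, which encode OSCP, subunit d and coupling factor F6. Atp5o (chr16:91925223-91931630) ran from 2586 through 2842 to 2976 in Vehicle, 2979 through 3334 to 3401 in GDF15 and 2571 through 2777 to 3192 in PairFed, with a log2 difference of 0.22 ± 0.059 from Vehicle (DESeq2 adjusted p = 0.00125). Atp5h (chr11:115415691-115419919) ran from 2891 through 3326 to 3520, 3574 through 3776 to 3936 and 2882 through 3278 to 3785, with a difference of 0.20 ± 0.065 (DESeq2 adjusted p = 0.00741). Atp5j (chr16:84827871-84835857) ran from 2954 through 3235 to 3474, 3502 through 3604 to 3854 and 3005 through 3186 to 3505, with a difference of 0.18 ± 0.052 (DESeq2 adjusted p = 0.00367). In all 3 genes the GDF15 and Vehicle values did not overlap, a separation whose share over all genes was not counted. The fourth gene of the stalk, Atp5pb (chr3:105942698-105959263), which encodes its long subunit b, ran from 5932 through 6397 to 6700, 6194 through 6528 to 6739 and 5887 through 6307 to 7173, with overlapping groups and a difference of 0.020 ± 0.05.

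Atp5e, the epsilon subunit of the central stalk (chr2:174461075-174464101), ran from 2505 through 2809 to 3070 in Vehicle, 2963 through 3146 to 3291 in GDF15 and 2537 through 2723 to 3017 in PairFed. Its groups overlapped, with 4 of 6 GDF15 livers above all Vehicle livers, and the log2 difference was 0.16 ± 0.055 (DESeq2 adjusted p = 0.0164), which was lost without Vehicle replicate 1 (0.13, DESeq2 adjusted p = 0.0565) and with upper-quartile scaling. The catalytic subunits of the head did not pass. Atp5b ran from 23600 through 26230 to 27590 in Vehicle and 24380 through 26440 to 27970 in GDF15, with a log2 difference of 0.014 (95% interval -0.089 to 0.12), and Atp5a1, the alpha subunit, gave 0.006 (-0.11 to 0.12). Atp5c1, the gamma subunit that turns within the head, gave 0.10 (-0.012 to 0.22, DESeq2 adjusted p = 0.169).

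**Figure D2:**
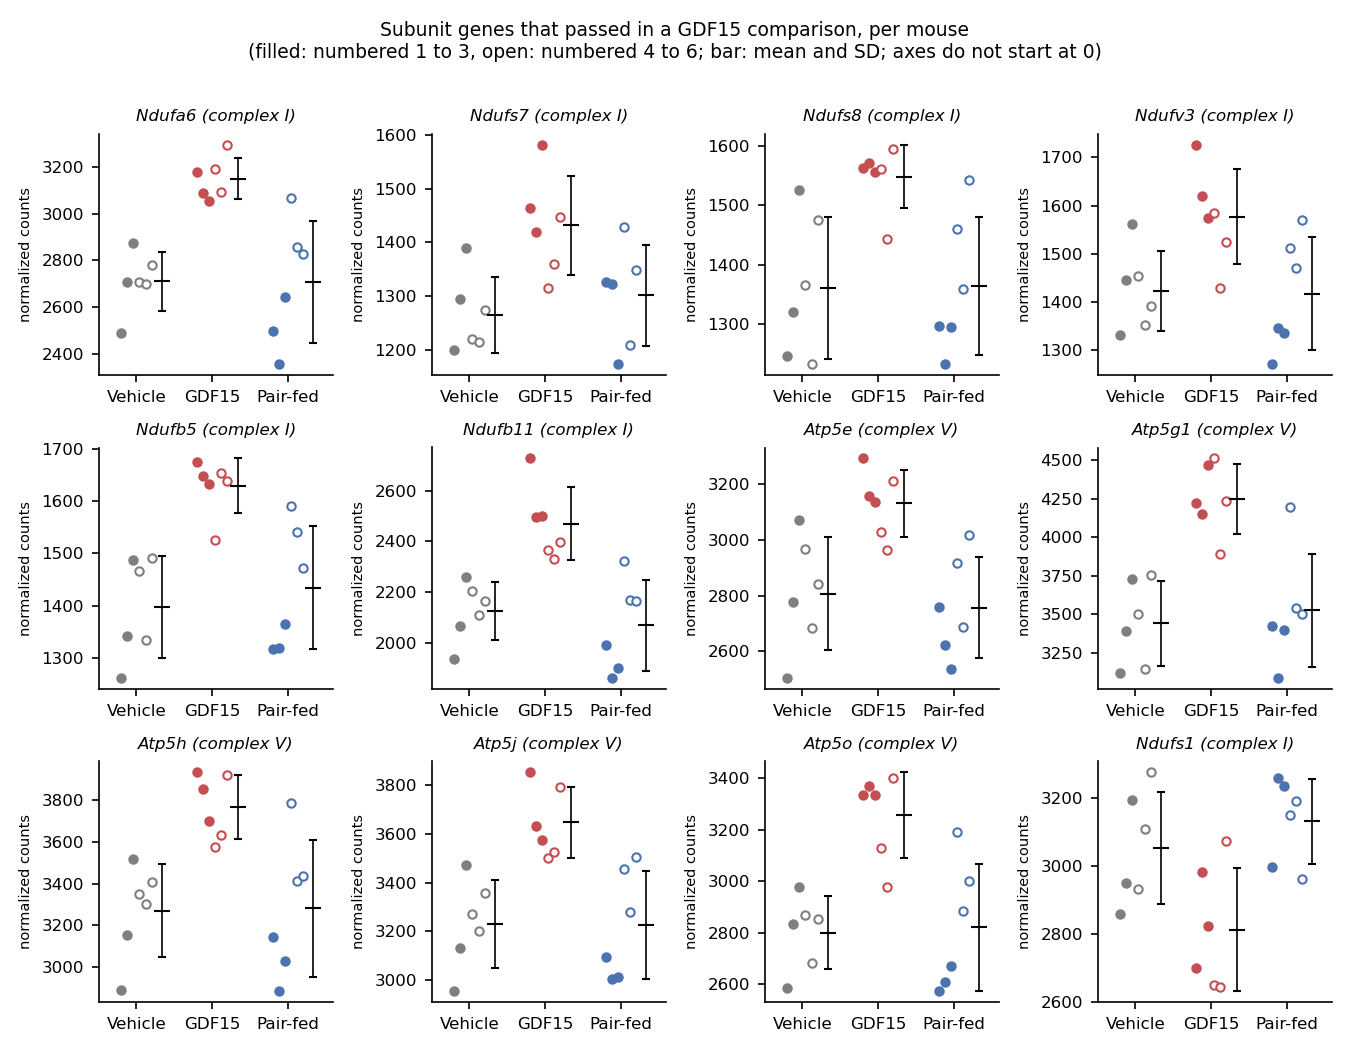
Normalized counts of the 12 members that passed in either GDF15 comparison, 1 point a mouse (filled for numbers 1 to 3, open for 4 to 6) beside the group mean with its SD, on axes that do not start at 0. The GDF15 values of Atp5g1, Atp5h, Atp5j, Atp5o, Ndufa6, Ndufb5 and Ndufb11 lie above all Vehicle values, and Ndufb11 also lies above all PairFed values. Of all genes tested, 15.8% were called higher than Vehicle, and the share so separated from Vehicle was not counted.

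The contrast within subassemblies was measured with ratios of counts within each liver, which do not depend on how libraries are scaled. The ratios were chosen after the values of the genes had been seen, and set genes that passed over genes of the same part that did not. A separation of the groups was thus largely fixed by this choice, which the adjusted p does not cover. The tests describe these livers and add no independent evidence. The share of other gene ratios so separated was not counted. The ratio of Atp5g1 to Atp5g3 ran from 0.35 through 0.382 to 0.406 in Vehicle, 0.442 through 0.458 to 0.54 in GDF15 and 0.347 through 0.378 to 0.41 in PairFed livers. All 6 GDF15 livers lay above the 12 others. The mean log2 ratio was higher by 0.31 than in Vehicle and by 0.32 than in PairFed (exact permutation test over samples, two-sided, p = 0.00216 for each, adjusted p = 0.00325 over 6 tests), and 0.00216 is the smallest p that groups of 6 can give. The ratio of the summed stalk genes Atp5h, Atp5j and Atp5o to Atp5pb ran from 1.37 through 1.45 to 1.51 in Vehicle, 1.57 through 1.64 to 1.73 in GDF15 and 1.38 through 1.45 to 1.54 in PairFed. Again all 6 GDF15 livers stood above the others, with log2 differences of 0.18 from each group (exact permutation p = 0.00216, adjusted p = 0.00325). For PairFed against Vehicle the differences of these ratios were -0.011 (exact permutation p = 0.823) and -0.005 (exact permutation p = 0.903). With any 1 library left out the differences between GDF15 and the other groups stayed between 0.27 and 0.35 for the c-ring ratio and between 0.16 and 0.20 for the stalk ratio.

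**Figure D3:**
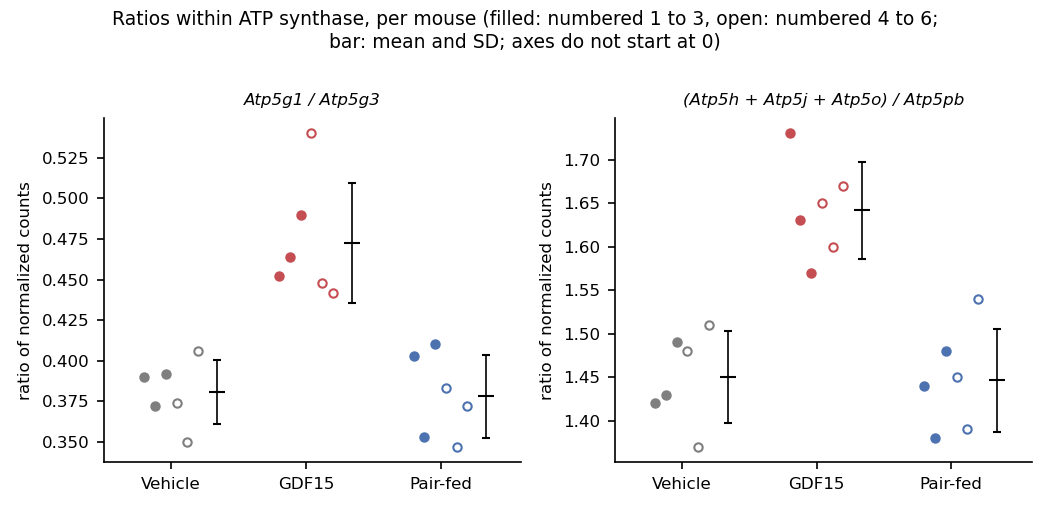
Ratio of Atp5g1 to Atp5g3 counts and ratio of summed Atp5h, Atp5j and Atp5o counts to Atp5pb counts in each liver, 1 point a mouse (filled for numbers 1 to 3, open for 4 to 6) beside the group mean with its SD. In both panels the 6 GDF15 livers lie above the 12 Vehicle and PairFed livers, from 0.442 upward for the c-ring ratio and from 1.57 upward for the stalk ratio.

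Against PairFed livers, 9 of the 82 members tested were higher with GDF15 and 1, Ndufs1, was lower, where 13.3% of all 14353 genes tested were higher and 13.8% were lower. No member met the study's fold rule, against 3.37% of all genes. The 9 were Ndufa6, Ndufb5, Ndufb11, Ndufs8, Atp5e, Atp5g1, Atp5h, Atp5j and Atp5o, all of them also higher than Vehicle. Ndufs7 and Ndufv3 gave 0.14 ± 0.059 (DESeq2 adjusted p = 0.066) and 0.15 ± 0.062 (DESeq2 adjusted p = 0.0519) against PairFed. By complex, 4 members of complex I rose and 1 fell, 5 of complex V rose, and none of complexes II, III and IV passed. The median over members was 0.037 beside -0.001 over all genes and 0.041 over genes with a mean of at least 100 counts. At an unadjusted p under 0.05 there were 17 members, and edgeR gave 9 higher and 1 lower. Correction for GC content and length gave 11 higher and 7 lower, where 14.3% of all genes were higher and 14.9% lower. Leaving out PairFed replicate 4 gave 16 higher and 1 lower, and the share of all genes in that fit was not counted.

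No member was called for pair-feeding alone. Of the 84 members tested in PairFed against Vehicle, 0 passed in DESeq2, 0 in edgeR and 0 even at an unadjusted p under 0.05. Over all 16242 genes tested the percentages called were 0 higher, 0 lower and 0 by the fold rule, with 718 genes at an unadjusted p under 0.05. The median over members was 0.003, which pools 2 opposite values, since among the 77 well measured members it was -0.079 in livers numbered 1 to 3 (3 above 0) and 0.073 in livers numbered 4 to 6 (72 above 0). For 76 of the 77 well measured members the 95% interval over all livers lay within 0.25 of 0 on the log2 scale. For Atp5g1 the pair-fed livers ran from 3085 to 4198 beside 3120 to 3757 in Vehicle, and for Ndufb11 from 1863 to 2322 beside 1938 to 2260.

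The direction of the members as a whole depended on the scale on which they were read. In normalized counts, scaled by DESeq2's median of ratios, the 84 members summed to 251400 through a median of 282300 to 296800 in Vehicle, 267400 through 294400 to 298000 in GDF15 and 261400 through 277000 to 312200 in PairFed. The groups overlapped and the GDF15 mean was 2.69% above that of Vehicle and 2.33% above that of PairFed. As a share of all counts in the library the same members took 1.36% through 1.415% to 1.49% in Vehicle, 1.17% through 1.31% to 1.37% in GDF15 and 1.34% through 1.405% to 1.51% in PairFed. The GDF15 mean thus differed by -8.69% from Vehicle and by -8.47% from PairFed in share of counts, and by -9.83% and -9.8% in summed TPM. The difference in share lay mostly in livers numbered 4 to 6, with means of 1.23% in GDF15, 1.42% in Vehicle and 1.453% in PairFed. In livers numbered 1 to 3 the means were 1.363%, 1.42% and 1.38%.

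Albumin (Alb), the main secreted protein of hepatocytes, took 7.42% ± 0.34 (SD, n = 6) of counts in GDF15 livers, 6.24% ± 0.35 in Vehicle and 6.23% ± 1.06 in PairFed. Scaling by total counts moved the median log2 fold change of all genes to -0.174 against Vehicle and -0.163 against PairFed, and that of the members to -0.117 and -0.121. On that scale 35 members passed against Vehicle, 34 of them lower and only Atp5g1 higher (0.13, DESeq2 adjusted p = 0.0467), and 33 passed against PairFed, all lower. On the same scale 32.3% and 30.9% of all genes were lower, and 34.1% and 33.6% of genes with a mean of at least 100 counts, beside 44.2% and 42.9% of the 77 members at that level. The 11 genes named above ran from -0.021 to 0.133 against Vehicle on that scale, so that Atp5e and Ndufv3 turned below 0. The ratios within complex V do not depend on the choice of scale.

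**Figure D4:**
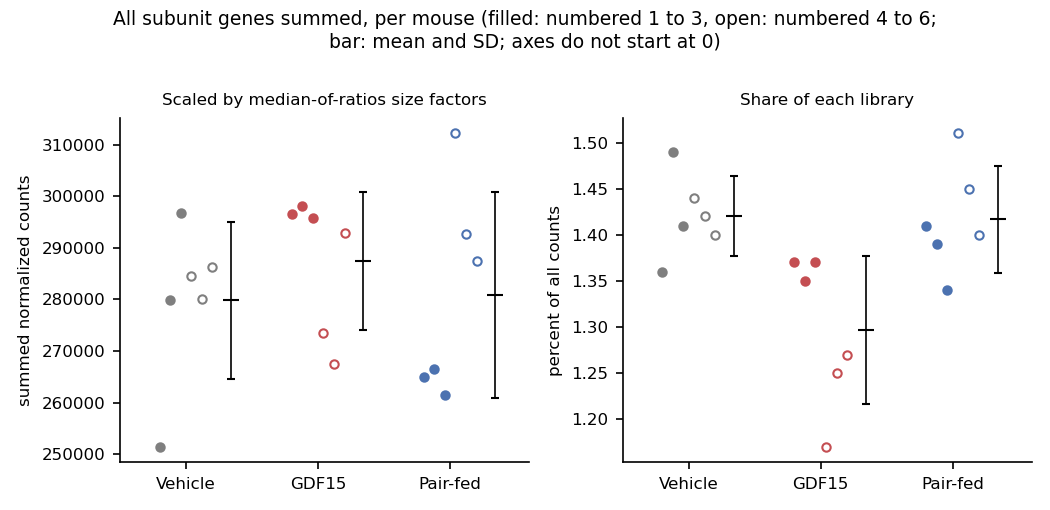
Summed level of the 84 members in each liver, as normalized counts and as a percentage of all counts in the library, 1 point a mouse (filled for numbers 1 to 3, open for 4 to 6) beside the group mean with its SD. The groups overlap in normalized counts, with GDF15 at 267400 to 298000. In share of counts GDF15 lies at 1.17% to 1.37%, Vehicle at 1.36% to 1.49% and PairFed at 1.34% to 1.51%. The GDF15 livers below all PairFed livers in share are those numbered 4 to 6.

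Livers numbered 1 to 3 and those numbered 4 to 6 within each group behaved differently for this gene family. The labels name no batch, and the numbers are only replicate numbers. In numbers 1 to 3 the 84 members summed to 295800 to 298000 in GDF15 and 261400 to 266500 in PairFed, and in numbers 4 to 6 to 267400 to 292900 and 287500 to 312200, so that the order of these groups turned. Depth moved with this split, since PairFed libraries 1 to 3 held 17180057 to 17926397 counts and 4 to 6 held 25047723 to 35301853. GDF15 libraries moved the other way, with 21050932 to 25001486 counts in numbers 1 to 3 and 16508864 to 19108435 in 4 to 6. In both sets the deeper of these 2 groups was thus the one with the higher sum. Single libraries did not always follow this order. PairFed replicate 6, the deepest library at 35301853 counts, had the lowest sum of PairFed numbers 4 to 6, at 287473. Vehicle replicate 1 summed to 251428 at 20472562 counts, and Vehicle replicate 3 to 296782 at 18059478. The part of depth in the result was not tested. Of the 77 well measured members, 76 lay above 0 for GDF15 against PairFed in numbers 1 to 3 (median 0.207) and 13 in numbers 4 to 6 (median -0.085), while over all genes with a mean of at least 100 counts the share above 0 was 56.8% and 56.1%. Against Vehicle the counts were 70 and 33 of 77, with medians of 0.109 and -0.019. For PairFed against Vehicle they were 3 and 72 of 77, where 50.6% and 52.2% of genes at that level lay above 0.

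Within numbers 1 to 3 alone, 32 members were higher than PairFed and none lower, and within numbers 4 to 6 none was higher and 5 were lower, namely Cox6a1, Cox6b1, Cox8a, Ndufa10 and Uqcr10. Against Vehicle 12 members passed in the first set, all higher, and 2 in the second, Ndufa6 higher and Cox6a1 lower. All genes were called, in either direction, in 21.9% and 18.9% of cases against Vehicle and in 23.1% and 16.7% against PairFed. By direction, 41.6% of the 77 well measured members were higher than PairFed in numbers 1 to 3. Of genes with a mean of at least 100 counts, 14.9% were higher and 11.3% lower there. In numbers 4 to 6, 6.49% of these members were lower than PairFed, beside 8.94% of such genes. Against Vehicle, 13.9% of such genes were higher in numbers 1 to 3, beside 12 of the 77 members. The members called over all 18 livers kept their direction in both sets. Both sets are parts of the livers on which these members were called, so the shared direction is no independent support. The 11 members higher than Vehicle lay between 0.19 and 0.33 in numbers 1 to 3 and between 0.11 and 0.28 in numbers 4 to 6, and the 9 higher than PairFed lay between 0.28 and 0.43 and between 0.071 and 0.175. Of these, Ndufa6 against Vehicle was the 1 that also passed in numbers 4 to 6 alone. With the number set as a covariate in the fit, 11 members passed against Vehicle and 10 against PairFed.

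**Figure D5:**
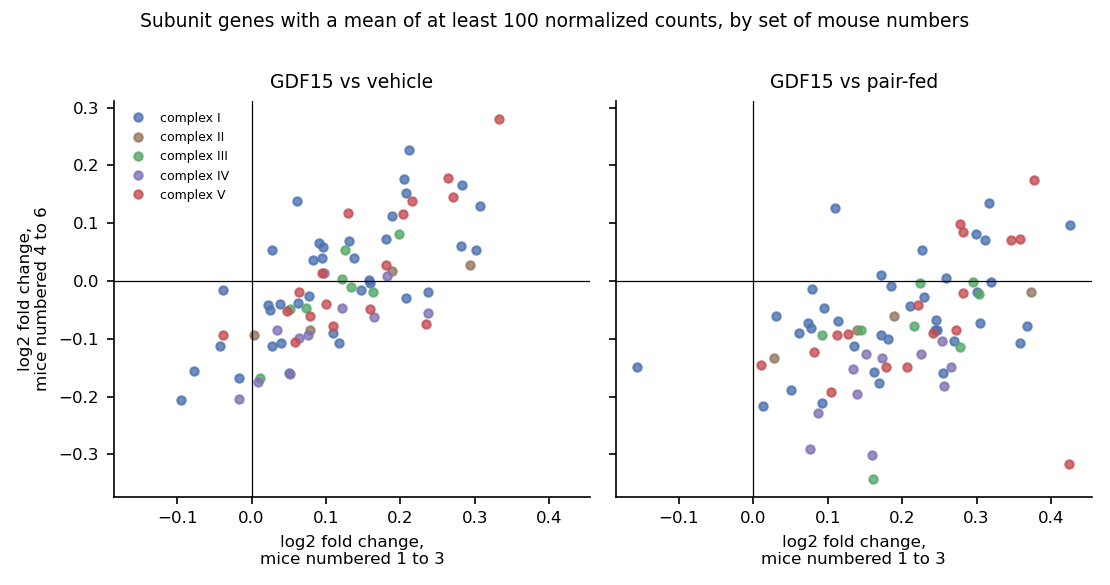
Log2 fold change of each of the 77 well measured members in livers numbered 1 to 3 (horizontal axis) and in livers numbered 4 to 6 (vertical axis), for GDF15 against Vehicle and against PairFed, each point a gene colored by complex. Against PairFed 76 members lie above 0 in numbers 1 to 3 and 13 in numbers 4 to 6, and Atp5g1 lies in the upper right of both panels.

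The promoter letters shown earlier were also counted by response. All 11 members higher than Vehicle had a promoter window, and 4 of them held at least 1 of the 4 longer motifs, as did 23 of the 67 members with a window. NRF1 letters were in 1 of the 11 and in 9 of the 56 others, GABP letters in 1 and 4, YY1 letters in 2 and 5, and ERR letters in 0 and 2.

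Genes that serve the complexes without being members were mixed. Of 12 regulators of mitochondrial biogenesis, 5 were higher than Vehicle and 0 lower, and 4 were higher than PairFed, with medians of 0.154 and 0.116. Ppargc1a, the coactivator PGC-1α, which drives mitochondrial gene expression, rose by 0.77 ± 0.23 (DESeq2 adjusted p = 0.0044) against Vehicle and 0.63 ± 0.23 against PairFed, and its relative Ppargc1b rose by 0.52 ± 0.19 against Vehicle (DESeq2 adjusted p = 0.0249). Gabpa, the DNA-binding chain of GABP, rose by 0.26, Polrmt, the mitochondrial RNA polymerase, by 0.28, and Yy1 by 0.24 ± 0.055 (DESeq2 adjusted p = 0.000117). Nrf1 gave 0.053 ± 0.10, Esrra 0.17 ± 0.15 and Tfam, which packages mitochondrial DNA, 0.14 ± 0.066 (DESeq2 adjusted p = 0.0796).

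Of 15 assembly factors of complex I measured, 3 were higher than Vehicle and 2 were lower, with Ecsit at 0.26, Ndufaf6 at 0.29, Timmdc1 at 0.21, Acad9 at -0.15 and Nubpl at -0.25. Of 34 assembly factors of complexes II to V measured, Surf1 rose (0.23 ± 0.067) and Cox19, a copper-handling factor of complex IV, fell (-0.38 ± 0.057, DESeq2 adjusted p = 1.62e-09). Among 17 electron carriers and feeders, 3 were higher and 3 lower than Vehicle. Etfb, which brings electrons from fatty acid oxidation, rose by 0.27 ± 0.064, Sqor, which feeds electrons from sulfide, by 0.19 ± 0.06, while Coq7 of ubiquinone synthesis gave -0.37 ± 0.076 and Gpd2, the mitochondrial glycerol phosphate shuttle enzyme, -0.34 ± 0.078. Of 6 adenine nucleotide and phosphate carriers, Slc25a4, the ADP/ATP carrier known from heart and muscle, was lower at -0.65 ± 0.15, and Slc25a5, the abundant liver carrier, gave -0.048 ± 0.067. Of 13 citrate cycle genes, 1 was higher, Fh1 at 0.29 ± 0.11, and 2 were lower, with Dlst at -0.24 ± 0.059. Of 29 genes of the small mitochondrial ribosome subunit, 6 were higher and 1 lower than Vehicle, with a median of 0.078. The symbol rule leaves out Cyc1 and Ndufab1, which encode subunits, and Dmac1, which encodes an assembly component of complex I, and none of these 3 passed. All these shares can be read against the 15.8% and 17.5% of all genes that were higher and lower than Vehicle. Among genes with a mean of at least 100 counts these shares were 22.2% and 14.5%. Against PairFed they were 13.3% and 13.8% of all genes, and 18.3% and 13.1% of genes with a mean of at least 100 counts.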

How the data were processed

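RNA from 18 mouse livers was sequenced by the study as paired reads. Per the submitters' processing notes, reads were trimmed with Trim Galore, quantified with Salmon and tested with DESeq2, with mm10 as genome build, and versions are not given in the sources used here. The authors deposited a table of estimated counts per gene for 16245 genes, each with a total of at least 5 counts over the 18 libraries. 0 columns of per-sample values were left unused. Counts were rounded to whole numbers. Library totals ran from 16508864 to 35301853, and a count of 0 allows up to 3 counts, for counting error only.

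Groups were taken from the labels. DESeq2 1.42.0 (R 4.3.3) was fitted over all 18 samples and all genes, with group as the only term, and p-values were adjusted over all genes tested (Wald test, Benjamini-Hochberg). Called genes had an adjusted p under 0.05. The study's rule adds an absolute log2 fold change above 1. Intervals are 95% intervals of the fitted log2 fold change. Ratios of counts were compared by an exact permutation test over samples (scipy 1.17.1, Python 3.11.15). The scripts were tested on simulated data.

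Alternatives were edgeR 4.0.16 with its quasi-likelihood test, TMM, upper-quartile and total-count scaling, size factors without the members, a filter that kept the 13207 genes with 10 or more counts in 6 or more samples, no independent filtering, only the 12 samples compared, the replicate number as a block, number sets 1 to 3 and 4 to 6, a loess correction for GC content and length, and leaving out each library. Leave-out fits of the ratios were added after the data were seen. Same-numbered samples of different groups did not deviate together in every pair (correlations of -0.191 to 0.271, -0.14 to 0.179 and -0.0173 to 0.501 for GDF15 with Vehicle, GDF15 with PairFed and PairFed with Vehicle), so the numbers were not taken to pair the mice. No pair of libraries was identical (highest correlation 0.9903).

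The members and lists were chosen with earlier results of these data known. Genes named with values were, in each complex, those that passed in either GDF15 comparison (up to 6 by size of change against Vehicle), the member with the highest level per length, the catalytic or core subunits, and the tissue forms of complex IV with their general forms. Ndufb3, Ndufb4, Ndufb4c, Ndufa4l2, Ndufs5-ps, Atp5pb, Ndufa10 and Uqcr10 were named in addition, after their values were seen. Transcript length and GC content came from GENCODE transcripts with the longest coding sequence for 83 of 84 members, and positions and promoters from RefSeq (GRCm38.p6). The individual values of 1 member are not reported here.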

Additional observations from a re-analysis of the deposited data

Results flagged for a closer look

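In 9 of 132 groups of 6 livers examined (6.82%), 1 liver stood apart from the other 5 by Dixon's gap criterion, where chance gives about 1 in 20 groups. The groups are not separate trials, since the summed levels contain the single genes and all come from the same livers. The 2 rates can therefore not be compared strictly. Of these, 5 concerned Vehicle replicate 1, whose members were low together. Its summed normalized counts were 251400 for all members, where the other Vehicle livers held 280000 to 296800. For complex I they were 67040 beside 74220 to 78190, and for complex IV 42150 beside 46950 to 49460. In the same liver Atp5g3 stood at 7990 (others 8984 to 9515) and Sdhd at 3921 (4468 to 4698). Without this liver 8 members were higher and 2, Ndufb3 and Ndufs1, were lower with GDF15 than with Vehicle. The share of all genes called without it was not counted.

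GDF15 replicate 4 was the lowest of its group for Ndufb5, at 1526 normalized counts (others 1633 to 1674), and GDF15 replicate 5 for Ndufs8, at 1443 (1557 to 1595). At the floor of detection, Cox6a2 was 0 in PairFed replicate 1 (others 0.7531 to 1.163) and Cox8b was 1.284 in GDF15 replicate 4, the only GDF15 liver with a count above 0.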

How the results depend on the processing

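Members that passed numbered 11 against Vehicle and 10 against PairFed. With the fold rule added, 0 passed in either comparison. Scaling by total counts gave 35 and 33 members, nearly all lower, where 32.3% and 30.9% of all genes were lower too, and moved the medians over members from 0.053 to -0.117 and from 0.037 to -0.121. Correction for GC content and length gave 17 members (14 higher) and 18 (11 higher), the additional lower ones including Ndufb3 and Cox6a1. Livers numbered 4 to 6 alone gave 2 and 5, and numbers 1 to 3 alone gave 32 against PairFed, with medians against PairFed of 0.207 (numbers 1 to 3) and -0.085 (numbers 4 to 6). These subsets hold 3 mice a group. The correction gave 15.7% of all genes higher and 17.6% lower than Vehicle, and 14.3% and 14.9% than PairFed. In numbers 4 to 6 all genes were called, in either direction, in 18.9% and 16.7% of cases against Vehicle and PairFed. In numbers 1 to 3 it was 23.1% against PairFed. The 32 members were all higher, 41.6% of the 77 well measured ones, beside 14.9% of genes with a mean of at least 100 counts. The 5 members in numbers 4 to 6 were all lower, 6.49% of the 77, beside 8.94% of such genes. Atp5e at -0.012 (DESeq2 adjusted p = 0.874) and Ndufv3 at -0.021 (DESeq2 adjusted p = 0.799) against Vehicle turned below 0 under total counts. Apart from the total-count construction and the smaller subsets, the cause was not tested. Under edgeR, TMM, upper-quartile scaling, the count filter, no independent filtering, size factors without the members, only the 12 samples compared and the number set as a covariate, 10 to 14 members passed against Vehicle and 9 to 11 against PairFed.

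Leaving out 1 library at a time gave 9 to 14 members against Vehicle (medians 0.026 to 0.075), 9 to 17 against PairFed (medians 0.015 to 0.075) and 0 for PairFed against Vehicle (medians -0.027 to 0.025). The 17 came without PairFed replicate 4, of which 16 were higher. The shares of all genes called in the fits that left out 1 library were not counted. With the replicate block, 10 members passed in each GDF15 comparison, with medians of 0.055 and 0.044, and Ndufv3 (DESeq2 adjusted p = 0.1) was lost against Vehicle. With that block 14.3% of all genes were higher and 16.5% lower than Vehicle, and 12.6% and 14% than PairFed. The numbers are shared by name only. Low counts limit Cox6a2, Cox8b, Cox4i2, Cox6b2 and Ndufs5-ps.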
